A study of Homo sapiens with 4 samples.

Results

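The small nucleolar RNAs and small Cajal body RNAs of THP-1 cells are the subject here. They were chosen by level alone: every row of the deposited matrix whose symbol starts with SNORA, SNORD or SCARNA and whose mean over the 4 libraries was at least 10 normalised reads. That gave 95 of the 27106 genes in the matrix, made up of 42 SNORA, 47 SNORD and 6 SCARNA genes, out of 156 rows with such symbols. Their levels therefore describe the choice. The difference between the groups was not a criterion, but the mean was taken over both groups. A member near the limit can thus have passed only through the group where it was high, as SNORA37 and SNORD58 did through the knockdown. Differences of such members are not free of the choice. The members nearest to the limit were SNORD67, SNORA46 and SNORD62B, with means of 10.3, 10.4 and 10.6 normalised reads. Just outside it lay SNORA2B, SNORA84 and SNORD91A, with means of 9.58, 9.43 and 9.29.

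THP-1 is an established line of human monocytic leukaemia cells, and total RNA was sequenced. The cells were treated with an antisense oligonucleotide, a short synthetic strand that binds an RNA by base pairing. In 2 libraries it was non-targeting (the controls), and in 2 it targeted the long noncoding RNA SGOL1-AS1 (the knockdown). All 4 columns name day 5, the labels name 1 cell line and 1 kind of targeting oligonucleotide, and they do not say whether libraries of a group are separate cultures, so p-values measure only the spread between these libraries, which may be technical. The matrix names its knockdown columns by another code than the labels, with replicate numbers 3 and 2 where the labels have 1 and 2, so these were assigned by elimination and are numbered here in column order. The target itself, now named SGO1-AS1, had 24 and 21 reads in the controls and 12 and 17 after knockdown, a log2 fold change of -0.48 ± 0.37 (SE) with an adjusted p of 0.555 by limma, which does not check the labels.

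Small nucleolar RNAs are short, stable RNAs that guide chemical changes on other RNAs. Those with boxes C and D (SNORD) bind fibrillarin, NOP56, NOP58 and SNU13 and direct ribose methylation. Those with boxes H and ACA (SNORA) bind dyskerin, GAR1, NHP2 and NOP10 and direct the conversion of uridine to pseudouridine. Most act on ribosomal RNA in the nucleolus, and small Cajal body RNAs (SCARNA) act on spliceosomal RNAs in Cajal bodies. In human cells most are released from introns of a host gene after splicing, and a few, such as U3, are transcribed from promoters of their own. Dividing cells need them to build ribosomes and spliceosomes.

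The sequences below belong to the members that the results turn on, as GENCODE 29 lists them on GRCh38, 5′ to 3′ in DNA letters. Capitals mark the first box C (ATGATGA or GTGATGA within the first 30 bases) and the last box D (CTGA within the last 20 bases) of box C/D RNAs, and the ACA 3 bases before the end of box H/ACA RNAs. SCARNA7, the member that passed the test, is shown as its first and last stretch, bases 1 to 120 and 211 to 330 of 330. SNORD17 and SNORA23 are well-measured members with lower knockdown values, SNORA73B and SNORD3A are the most abundant, SNORD101 and SNORD100 lie in introns of the same gene, and SNORD19 and SNORA37 are low members with high knockdown values.
SCARNA7 first stretch: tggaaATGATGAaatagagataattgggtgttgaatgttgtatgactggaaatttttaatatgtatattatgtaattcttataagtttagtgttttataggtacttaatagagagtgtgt
SCARNA7 last stretch: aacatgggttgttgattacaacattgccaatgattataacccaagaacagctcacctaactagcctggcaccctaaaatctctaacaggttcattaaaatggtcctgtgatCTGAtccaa
SNORD17: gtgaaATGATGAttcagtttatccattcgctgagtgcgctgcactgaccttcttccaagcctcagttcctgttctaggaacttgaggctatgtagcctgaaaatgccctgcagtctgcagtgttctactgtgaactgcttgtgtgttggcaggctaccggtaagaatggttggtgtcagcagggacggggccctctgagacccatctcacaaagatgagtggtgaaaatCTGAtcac
SNORA73B: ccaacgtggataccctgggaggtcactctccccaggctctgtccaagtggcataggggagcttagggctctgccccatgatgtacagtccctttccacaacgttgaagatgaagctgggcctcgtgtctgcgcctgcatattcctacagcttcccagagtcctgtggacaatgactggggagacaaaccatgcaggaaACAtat
SNORD3A: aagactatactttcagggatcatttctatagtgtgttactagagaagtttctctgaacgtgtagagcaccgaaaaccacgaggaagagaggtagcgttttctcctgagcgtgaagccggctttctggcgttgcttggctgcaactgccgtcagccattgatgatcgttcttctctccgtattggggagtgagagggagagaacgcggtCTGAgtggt
SNORA23: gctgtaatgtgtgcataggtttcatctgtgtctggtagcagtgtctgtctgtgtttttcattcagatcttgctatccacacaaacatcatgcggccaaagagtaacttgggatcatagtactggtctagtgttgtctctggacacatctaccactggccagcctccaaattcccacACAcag
SNORD101: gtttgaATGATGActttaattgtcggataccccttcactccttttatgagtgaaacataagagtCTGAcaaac
SNORD100: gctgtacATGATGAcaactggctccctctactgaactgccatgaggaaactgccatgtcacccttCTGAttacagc
SNORD19: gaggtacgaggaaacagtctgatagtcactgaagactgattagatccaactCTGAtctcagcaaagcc
SNORA37: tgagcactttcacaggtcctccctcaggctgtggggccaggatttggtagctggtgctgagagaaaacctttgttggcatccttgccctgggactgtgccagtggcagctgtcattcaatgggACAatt

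SCARNA7, SNORD17, SNORD101 and SNORD100 hold both the C and the D box in these windows, and SNORD19 and SNORD3A hold box D but no box C of these letters. Of the 47 SNORD members 29 (61.7%) held the box C and 46 (97.9%) the box D. Of all 314 annotated SNORD genes 64.3% and 92.0% did. The ACA stood in 33 of 42 SNORA members (78.6%), against 66.8% of 214 annotated SNORA genes, and in 4 of 6 SCARNA members. Only the gene's own strand was searched, and a match describes letters, not a working guide.

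Which of these RNAs reached the limit went with what the annotation places around them. GENCODE 29 holds 553 genes with such symbols. Over 161 of them lies an exon of another gene on the same strand; 6 of these are in the matrix, with a highest mean of 5.43, and 0 are members. Of the 290 that lie in intron sequence alone 88 (30.3%) are members, and of the 102 outside other genes 7 (6.86%) are. How reads over overlapping genes were counted is not given in the sources used here, and its part in this pattern was not tested. The matrix holds only genes with at least 2 reads in knockdown library 1, and other genes of these symbols are not analysed here.

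**Figure D1:**
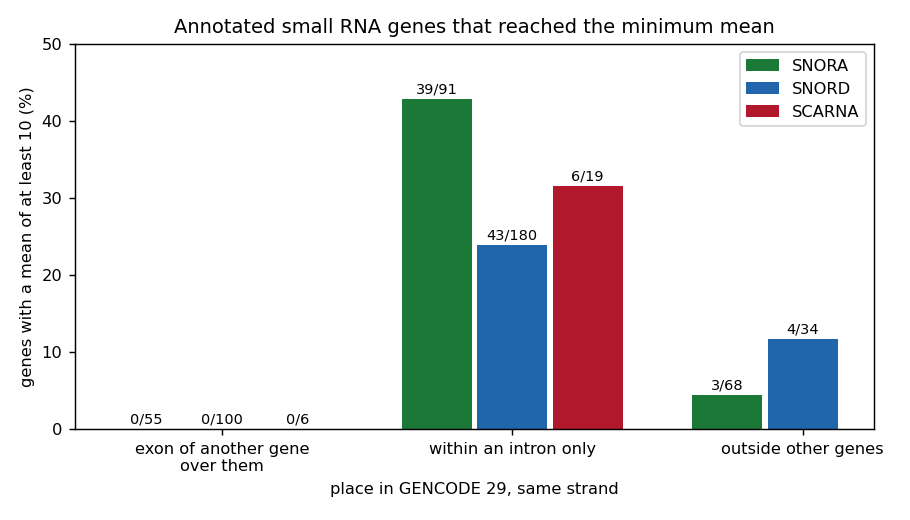
Share of annotated SNORA, SNORD and SCARNA genes with a mean of at least 10 normalised reads (y axis, percent) by place in GENCODE 29 on the same strand (x axis), with members and annotated genes counted above each bar. The share was 0 under an exon of another gene in each class, and 42.9%, 23.9% and 31.6% for SNORA, SNORD and SCARNA genes within introns only.

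The members took a small and even part of the libraries, which held 41435922 to 51851314 gene reads. Their share of these reads was 0.0289% and 0.0289% in the controls, and it was 0.0292% and 0.0291% after knockdown. Summed over members, the normalised count was 14132 and 14115 in the controls and 13579.5 and 13775 after knockdown. The knockdown sums were lower while the knockdown shares were higher, since normalised totals also differ between libraries. SNORA73B and SNORD3A held 50.3% to 54.2% of the sum in each library. At the other end 67 of the 95 members had a mean under 50.

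Longer members had higher counts. The 36 members under 100 bases had a median level of 20.9 normalised reads, and 1 of them reached 100. The 49 of 100 to 180 bases had a median of 33.2, with 7 at 100 or more, and the 10 over 180 bases a median of 450.3, with 7 at 100 or more. Across the 95 genes, which share the same 4 libraries, Spearman's rho of length with level was 0.37, and that of length with count per 100 bases was 0.09. The RNA was bound to silica columns, which are known to keep short RNAs poorly; the part of that step in these levels was not tested.

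The most abundant members act in the cutting of the ribosomal RNA precursor rather than in its modification. SNORA73B, a copy of U17 that is needed to make 18S ribosomal RNA, lies within RCC1 (1:28508559-28508762 on the plus strand, GRCh38). Its normalised count was 5101 and 4613 in the controls against 4513 and 4269 after knockdown, or 4857 ± 345 and 4391 ± 173 (SD, n = 2). Both knockdown values lay below both control values, and the log2 fold change of -0.14 ± 0.06 (SE) did not pass (adjusted p = 0.188 by limma). SNORD3A is a gene of U3, which takes part in the first cuts of the precursor (17:19188016-19188714 on the plus strand, GRCh38). It was at 2453 and 3034 against 2455 and 2656, with overlapping groups and a log2 fold change of -0.10 ± 0.08 (adjusted p = 0.570 by limma).

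The other U3 copies gave no call either. SNORD3B-1 was at 683 and 738 in the controls and 681 and 762 after knockdown, with overlap and a log2 fold change of 0.02. SNORD3B-2 was at 175 and 187 against 214 and 197, with both knockdown values higher and a log2 fold change of 0.18 ± 0.13 (adjusted p = 0.518 by limma). The mature sequences of the last 2 are 100% identical and that of SNORD3A is 99.5% identical to its nearest copy, so the split of reads among the 3 genes is uncertain. SNORD13, which helps acetylate 18S ribosomal RNA and was named after its values were seen, was at 48.0 and 44.2 against 32.6 and 53.6, with overlapping groups.

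**Figure D2:**
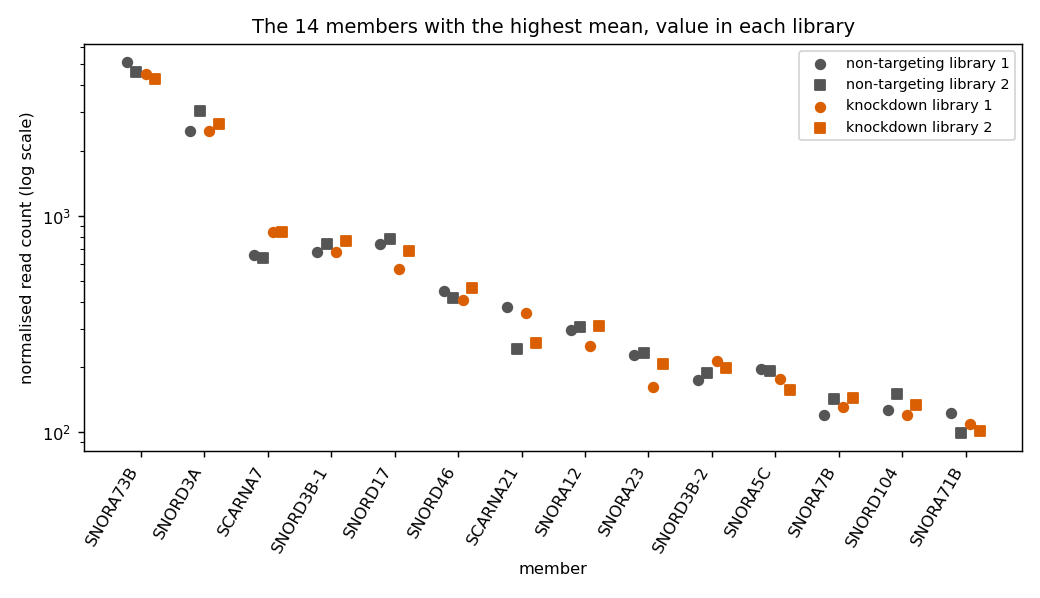
Normalised read count (y axis, log scale) of the 14 members with the highest mean (x axis), with 1 point per library: controls in grey and knockdown in orange, library 1 as circles and library 2 as squares. SCARNA7 stands at 657 and 635 in grey and 843 and 843 in orange, while the points of SNORD3A and SNORD46 overlap between the groups.

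Of all 95 members 1 passed the test, SCARNA7, and it rose, where 0.851% of all genes tested were called higher and 3.4% lower. SCARNA7, also known as U90, guides methylation of the U1 spliceosomal RNA and lies in an intron of KPNA4, the gene of an importin alpha (3:160514907-160515236 on the minus strand, GRCh38; ENSG00000238741). It had 684 and 675 reads in the controls and 879 and 739 after knockdown. Scaled by library, these are 657 and 635 against 843 and 843 normalised reads, or 646 ± 15.4 against 843 ± 0.100 (SD, n = 2). Both knockdown values lay above both control values, and the knockdown libraries differed from each other by less than the controls did. The log2 fold change was 0.38 ± 0.08 (SE), with an adjusted p of 0.00519 by limma. The read rate after knockdown was 1.31 times that of the controls, with an exact 95% interval from 1.21 to 1.40; such intervals cover counting error only.

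On the recovered reads edgeR gave SCARNA7 an adjusted p of 0.00646 and DESeq2 0.0144. Without control library 2 its log2 fold change was 0.36 with an adjusted p of 0.0517 by limma. With no mean-variance trend the adjusted p was 0.306, a setting in which limma called 0 genes of all kinds, with 2337 at an unadjusted p under 0.05. KPNA4 was at 8254 ± 400.3 in the controls and 8224 ± 585 normalised reads after knockdown (SD, n = 2), a log2 fold change of -0.01 (adjusted p = 0.972 by limma).

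The 5 other SCARNA members gave no call by limma, where 4.25% of all genes tested were called. SCARNA21, in an intron of the chromatin remodeller gene CHD3, was at 380.3 and 243 in the controls and 356 and 259 after knockdown, so that libraries of the same group differed more than the groups. SCARNA3, in an intron of the ubiquitin ligase gene COP1, was at 25.9 and 27.3 against 37.4 and 35.4, with no overlap, and its log2 fold change of 0.44 ± 0.28 (SE) had an adjusted p of 0.458 by limma. SCARNA20 was at 21.1 and 21.6 against 21.1 and 16.0, SCARNA18B at 20.2 and 10.3 against 18.2 and 19.4, and SCARNA8, named after its values were seen, at 26.9 and 7.53 against 11.5 and 11.4. Whether SCARNA7 differed from these in its change was not tested.

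Among SNORD members the lowest p belonged to SNORD17, a guide for methylation of 28S ribosomal RNA in an intron of the sorting nexin gene SNX5 (20:17962710-17962946 on the minus strand, GRCh38). It was at 742 and 778 normalised reads in the controls and 566 and 687 after knockdown. Both knockdown values were lower, that of knockdown library 1 the more so, and the log2 fold change was -0.29 ± 0.09 (SE; adjusted p = 0.0834 by limma). SNORD17 passed by limma with robust empirical Bayes (adjusted p = 0.0479), but not by edgeR (adjusted p = 0.110) or DESeq2 (adjusted p = 0.292). Its log2 fold change was -0.42 without knockdown library 2 and -0.15 without knockdown library 1. SNORD46 was at 451 and 417 against 409 and 465, with overlap. SNORD94, a guide for the U6 spliceosomal RNA that was named after its values were seen, was at 111 and 94.1 against 101 and 114, also with overlap.

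Low box C/D members gave larger values with wider errors. SNORD19, in an intron of GNL3, was at 27.8 and 26.3 in the controls and 44.1 and 50.2 after knockdown. Its groups did not overlap, and its log2 fold change of 0.77 ± 0.27 (SE) did not pass (adjusted p = 0.110 by limma), with a read rate ratio of 1.73 and an exact interval from 1.23 to 2.46. SNORD101, in an intron of RPS12, was at 28.8 and 24.5 against 36.4 and 49.0, again without overlap, at 0.65 ± 0.28 (adjusted p = 0.224). The highest and lowest log2 fold changes among SNORD members, named after their values were seen, were those of SNORD58 at 1.03 ± 0.47 and SNORD72 at -0.62 ± 0.40. SNORD58 was at 4.802 and 10.3 against 16.3 and 14.8 and SNORD72 at 15.4 and 21.6 against 10.5 and 12.5 normalised reads, both without overlap and without a call. The control values of SNORD58 average below the minimum mean of 10, so it became a member only through its knockdown values.

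Box H/ACA members gave no call by limma, where 4.25% of all genes tested were called. SNORA23, in an intron of the importin gene IPO7 (11:9428773-9428954 on the plus strand, GRCh38), was at 229 and 232 normalised reads in the controls and 161 and 208 after knockdown. Its groups did not overlap and knockdown library 1 was the lowest, with a log2 fold change of -0.33 ± 0.14 (SE, adjusted p = 0.202 by limma). The log2 fold change of SNORA23 was -0.51 without knockdown library 2 and -0.15 without knockdown library 1. SNORA12 was at 297 and 307 against 250.3 and 310.2 and SNORA7B at 120.04 and 143 against 131 and 144, both with overlap. SNORA79B was at 60.5 and 68.7 against 71.0 and 71.9, a small gap between groups with a log2 fold change of 0.15 ± 0.20 (adjusted p = 0.780).

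SNORA37, in an intron of the methyl-CpG binding gene MBD2 and named after its values were seen, had the highest log2 fold change of the 95 members at 1.33 ± 0.48 (SE; adjusted p = 0.136 by limma). It was at 10.6 and 3.76 in the controls and 21.1 and 14.8 after knockdown, from 11, 4, 22 and 13 reads. Its read rate ratio of 2.56 has an exact interval from 1.36 to 5.04, which shows the width that counting error alone gives at this level. The control values of SNORA37 average below the minimum mean, so it became a member only through its knockdown values. It was also picked as the highest of the 95 members. The ratio and its interval are not free of these choices, so no conclusion is drawn from where the interval lies. Without control library 1, which leaves 1 control library with 4 reads of SNORA37, its log2 fold change was 1.97.

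Few members were called in any class, and few genes of any kind were called at the low level of most members. By limma 1 of 95 members was called higher and 0 lower, where 0.851% of all 19398 genes tested were called higher and 3.4% lower. An unadjusted p under 0.05 was found for 9 members, 6 higher and 3 lower, and for 17.2% of all genes tested. With every library set to the same median the calls over all genes were 291 higher and 650 lower, and with the same total 235 and 293, instead of 165 and 660; the members' counts were then 1 higher and 0 lower under both. The median log2 fold change was 0.03 over SNORA, 0.07 over SNORD and 0.18 over SCARNA members, against -0.01 over all genes tested.

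Level set how far a member's value could be read. None of the 67 members with a mean of 10 to 50 was called, where 0.395% of all genes at that level were, and of the 28 others 1 was, where 5.71% were. The median standard error was 0.37 on the log2 scale for the low members and 0.17 for the others. Among the low members the median log2 fold change was 0.14 and 43 were above 0, and among the others it was -0.01 with 12 above 0. All genes tested had medians of 0.09 at a mean of 10 to 50 and -0.02 above it, and the 3842 low genes that are not protein-coding had a median of 0.12.

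Both knockdown values lay above both control values in 27 members (28.4%) and below them in 10 (10.5%), where 21.6% and 25.1% of all genes tested did so. By class these counts were 10 and 4 of 42 SNORA, 15 and 5 of 47 SNORD, and 2 and 1 of 6 SCARNA members. Among the low members they were 24 (35.8%) and 6 (8.96%), against 24.8% and 14.3% of all low genes. Low genes that are not protein-coding had shares of 26.8% and 11.8%. Among the other members the counts were 3 and 4 of 28, against 20.4% and 29.2%. Measured from the control mean, the low members had a median of 0.28 in knockdown library 1 and 0.18 in knockdown library 2 on the log2 scale. These medians were 0.12 and 0.08 over all low genes, and 0.15 and 0.10 over low genes that are not protein-coding.

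**Figure D3:**
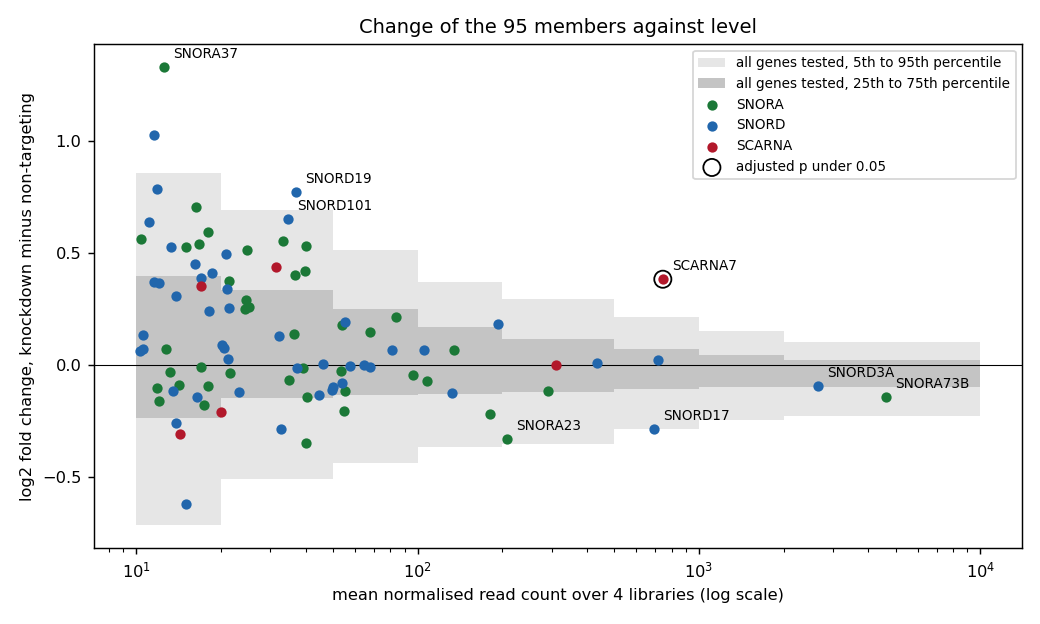
Log2 fold change, knockdown minus non-targeting (y axis), against the mean normalised read count (x axis, log scale) of the 95 members, coloured by class. Grey bands hold the middle of all genes tested at each level, and both members and bands narrow as the level rises. SCARNA7, circled, is the member with an adjusted p under 0.05, at 0.38.

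Host genes showed small differences. Of the 95 members 88 lie within 75 tested host genes, 66 protein-coding and 9 long noncoding. None of the 75 was called by limma, where 4.25% of all genes tested were. Of the hosts 74 had a mean of at least 50, a level at which 5.71% of genes were called. An unadjusted p under 0.05 by limma was found for 7 hosts, and for 17.2% of all genes tested. Log2 fold changes of the hosts ran from -0.17 to 0.20 with a median of 0.00. Hosts were far more abundant than members, with a median level of 7976 normalised reads and a median standard error of 0.05. Over all 95 members these medians were 25.1 and 0.32. SNX5, the host of SNORD17, was at 3409.9 ± 44.6 in the controls and 3457 ± 86.4 normalised reads after knockdown (SD, n = 2). RCC1, the exchange factor of the GTPase Ran, was at 6193 ± 122 and 5986 ± 186. It stands as host of SNORA73B only as the most abundant gene spanning it. Release of SNORA73B from another spanning gene was not tested. Member and host changed with the same sign in 44 of the 88 pairs. The 10 members in long noncoding hosts had a median log2 fold change of 0.19, and the 78 in protein-coding hosts of 0.07.

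The ratio of a member to its host was tested with limma over all 1640 pairs in the matrix in which a gene lies within another on the same strand. None of the 88 member ratios was called, where 0.732% of all pairs were. Among the 1075 other pairs with a nested gene at a mean of 10 to 50, 1 was called. An unadjusted p under 0.05 by limma was found for 6 member ratios and for 240 of the 1552 other pairs. The ratio of SCARNA7 to KPNA4 differed by 0.39 ± 0.13 (SE) on the log2 scale, with an adjusted p of 0.106. That of SNORD17 to SNX5 differed by -0.31 ± 0.13 (adjusted p = 0.236) and that of SNORD19 to GNL3 by 0.76 ± 0.28 (adjusted p = 0.144), by limma. The median over member pairs was 0.08 with 56 of 88 (63.6%) above 0, and over the 1552 other pairs 0.20 with 73.6% above 0.

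**Figure D4:**
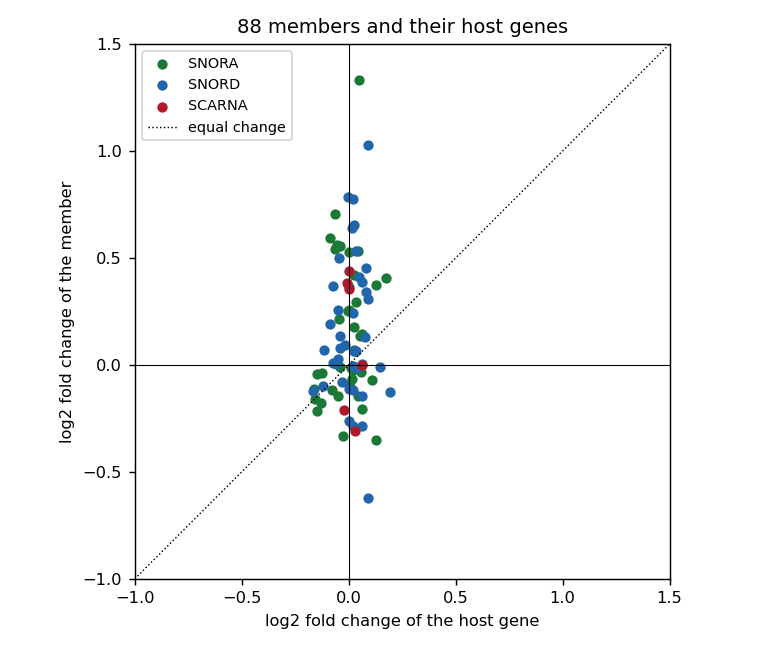
Log2 fold change of 88 members (y axis) against that of their host genes (x axis), coloured by class, with a dotted line of equal change. The points form a vertical band: hosts keep within -0.17 to 0.20, while members run from -0.62 to 1.33. The 2 axes differ in level and precision. Hosts had a median level of 7976 normalised reads and a median standard error of 0.05, against 25.1 and 0.32 over all 95 members.

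Per 100 bases of annotated sequence, 17 of the 88 members had a higher level than the exons of their host. SNORA73B had 2267 normalised reads per 100 bases against 157 in RCC1, the most abundant gene spanning it. SNORD17 had 292 against 43.2 in SNX5, SCARNA7 had 226 against 87.5 in KPNA4, and SNORA12 had 198 against 38.3 in CWF19L1. The median was 26.3 over members and 133 over their hosts on this scale. Reads of unspliced host RNA over an intronic member would be counted to it, and their share was not tested.

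Members of the same host can be set side by side on the log2 scale. RPS12, a ribosomal protein gene with a log2 fold change of 0.02, holds SNORD101, SNORD100 and SNORA33. SNORD101 was at 0.65, as given above, whereas SNORD100 was at 71.1 and 87.5 in the controls and 77.7 and 87.8 after knockdown, a log2 fold change of 0.07 ± 0.19 (SE), and SNORA33 was at 0.18 ± 0.23. In GNL3, the gene of nucleostemin, SNORD19 was at 0.77 while SNORD19C and SNORD69 were at 0.24 ± 0.38 and -0.12 ± 0.41. NCL, the gene of nucleolin, holds SNORA75, SNORD20 and SNORD82, at 0.26 ± 0.34, -0.11 ± 0.23 and -0.26 ± 0.40. NOP58 holds SNORD11, SNORD11B and SNORD70, at 0.00 ± 0.24, -0.14 ± 0.40 and -0.29 ± 0.28; SNORD70 was at 36.5 and 35.8 normalised reads against 31.6 and 27.4, without overlap.

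A further 5 hosts hold 2 members each. In the long noncoding SNHG4, SNORA74A was at 0.37 ± 0.34 (SE) on the log2 scale and SNORA74D at -0.35 ± 0.27. In TBRG4, a gene of mitochondrial RNA metabolism at -0.15, SNORA5A was at -0.04 ± 0.18 and SNORA5C at -0.22 ± 0.14, the latter with 197 and 191 normalised reads in the controls against 176 and 157 and no overlap. SNORA79B and SNORD126 in CCNB1IP1 were at 0.15 and 0.39, SNORD53 and SNORD53B in WDR43 at 0.34 and 0.45, and SNORD62A and SNORD62B in PRRC2B at 0.08 and 0.13. None of these members was called by limma over all genes tested, and differences between members of a host were not tested.

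**Figure D5:**
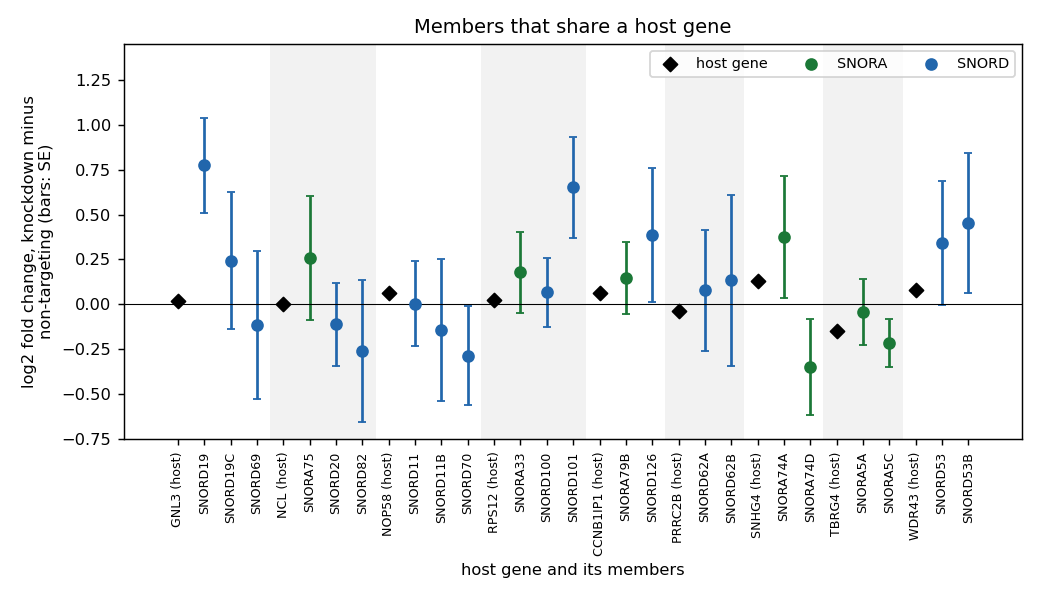
Log2 fold change (y axis, bars: standard error) of members that share a host, next to the host itself (black diamond), for the 9 hosts with 2 or 3 members (x axis). The hosts lie between -0.15 and 0.13, while SNORD19 and SNORD101 lie at 0.77 and 0.65 and the other members of GNL3 and RPS12 lie lower.

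Close copies limit what a row measures. Of the 95 members 25 share at least 90% of their letters with another annotated gene of these families, and 5 are identical to such a gene. The median log2 fold change was 0.07 over these 25 and 0.07 over the 70 others. SNORA73B shares 93.2% with SNORA73A, SNORA7B 98.6% with SNORA7A, and SNORA37 93.0% with SNORA30B. The symbol SNORA72 names 2 members, both named after their values were seen. The one in NUCKS1 (ENSG00000201944) was at 28.8 and 24.5 in the controls against 44.1 and 35.4, and the one in RPL30 (ENSG00000207067) at 17.3 and 27.3 against 22.1 and 30.8. An exon on the opposite strand overlaps 3 members (SNORA72 in RPL30, SNORD13 and SNORD4A), whose reads cannot be told apart from it if counting ignored strand. A further 16 genes annotated as snoRNA or scaRNA carry other symbols or none and are not members; limma called 0 of them, with 5 at an unadjusted p under 0.05, and their median log2 fold change was 0.19.

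Genes of the proteins that carry these RNAs gave no call by limma, with the share over all genes as above. Of the box C/D core 3 of 4 were tested, fibrillarin being not analysed here, with log2 fold changes from -0.05 to 0.06. All 4 of the box H/ACA core were tested, from -0.06 to 0.13. NOP58 was at 9060.2 ± 200.4 in the controls and 9471 ± 285 normalised reads after knockdown (SD, n = 2), and GAR1 at 1317 ± 131 and 1436 ± 69.4. Of 18 tested factors of assembly, transport and capping 0 rose and 0 fell. Nearest to the threshold was NOPCHAP1, a cofactor that loads NOP58, at 1030.4 and 1053 against 1301 and 1182 (log2 fold change 0.25 ± 0.07, adjusted p = 0.0512 by limma). Of 11 tested genes of Cajal body and scaRNA proteins 0 rose and 0 fell, and WRAP53, which brings scaRNAs to Cajal bodies, was at -0.13 ± 0.09.

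Of 15 tested genes of snoRNA release, trimming and decay 0 rose and 1 fell, with a median of -0.03. Over all genes tested 0.851% were called higher and 3.4% lower. The gene that fell was XRN1, a 5′ to 3′ exonuclease, at 8046 and 8248 in the controls and 6684 and 7541 after knockdown (log2 fold change -0.20 ± 0.06 SE, adjusted p = 0.0465 by limma). That call ended in 11 of 15 alternatives, such as edgeR (adjusted p = 0.0712), and by limma without knockdown library 1 (-0.11, adjusted p = 0.324), control library 1 (0.147) or control library 2 (0.244). The NOPCHAP1 difference passed in 5 of 15 alternatives. On a list of snoRNA host genes 0 of 40 tested rose and 0 fell, with RPL13A at -0.15 ± 0.05 and SNHG6 at 0.14 ± 0.06.

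Of 19 other small structured RNAs tested 0 rose and 1 fell, with a median log2 fold change of 0.04. Of all genes tested 0.851% were called higher and 3.4% lower. RN7SL3, a copy of the signal recognition particle RNA, was at 154094 and 177208 normalised reads in the controls and 134071 and 135795 after knockdown (-0.29 ± 0.06 SE, adjusted p = 0.00486 by limma). The call ended without control library 2 (-0.19, adjusted p = 0.333), after quantile normalization (adjusted p = 0.0511) and with no trend. RN7SL1, of nearly the same sequence, was at -0.22 ± 0.07 (adjusted p = 0.0788 by limma), and reads could be split between them. RN7SL1 passed in 5 of 15 alternatives, with an adjusted p of 0.00921 by edgeR, 0.00621 by DESeq2 and 1.29e-04 by limma with robust empirical Bayes, and also by limma with no filter on low values and without knockdown library 1. RNU4-2, a U4 gene named after its values were seen, was at 814 and 717 against 693 and 652, and RNVU1-18, a variant U1 gene, at 15.4 and 20.7 against 28.8 and 35.4; neither passed by limma (adjusted p = 0.268 and 0.187).

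Markers were checked against the label of the line. All 10 monocytic markers were tested, with a summed normalised count of 69239.9 and 67084 in the controls against 67562 and 67161. Among them 2 fell by limma, CD4 at -0.35 and FCGR1A at -0.37 (adjusted p = 1.93e-04 and 0.00118), where 3.4% of all genes tested were called lower. T cell markers in the matrix summed to 5.64 to 16.0. Of 4 B cell markers tested PAX5 fell, from 4666 and 4624 to 2786 and 3455 (-0.58, adjusted p = 2.45e-05 by limma), and the list summed to 4807 and 4759 against 2926 and 3594. Epithelial and fibroblast markers gave 0 calls among 2 tested and summed to 331 and 287 against 296 and 326, and erythroid markers were not analysed here. The part of these differences in the members' values was not tested, and in bulk RNA fewer cells of a type and less RNA per cell cannot be told apart.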

How the data were processed

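Total RNA of 4 THP-1 libraries in 2 groups of 2 was sequenced, after Qiagen RNeasy Plus Mini extraction and NEBNext Ultra II library preparation, per the labels' protocols. STAR 2.5.1b, DESeq2 and GRCh38 are named without a role, per the submitters' processing notes; no source used here names the counting tool, strand setting or annotation release. The authors deposited a normalised signal per gene. Each value was a whole multiple of a library's step within 0.000153 reads (100% of values), so whole reads were recovered. Genes under 2 reads in knockdown library 1 are missing, although 2375, 2132 and 2092 listed genes are below it in knockdown library 2, control library 1 and control library 2.

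Of the Ensembl identifiers 26579 matched a symbol table and 26077, among them all members, matched GENCODE 29. The test was limma 3.58.1 (R 4.3.3; empirical Bayes, mean-variance trend) on log2(value + 1), which understates changes of low genes. It covered the 19398 genes with a mean of 10 or more, and Benjamini-Hochberg adjusted p under 0.05 was called. A host is the most abundant tested protein-coding or long noncoding gene that spans the member on its strand. On recovered reads, DESeq2 1.42.0 and the quasi-likelihood test of edgeR 4.0.16 were alternatives. Fits were tested on simulated data. Members and lists were chosen with earlier results of these data known. Named genes were the 5 most abundant per class, those called, the 4 highest and 4 lowest with a mean of at least 50 and no overlap, those nearest to the limit, those of hosts with most members (a tie at the fifth place took 9 hosts), hosts of these, and up to 3 of smallest p per list; others are marked in the text.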

Additional observations from a re-analysis of the deposited data

How the results depend on the processing

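No paired analysis was possible because the groups share fewer than 2 replicate numbers: the knockdown columns are numbered 3 and 2 (libraries 1 and 2 here) and the control columns 1 and 2, so that 1 number is shared. Over 15 alternatives, 95 named genes gave 1359 comparisons with their reported values. Of these 1323 stayed on their side of the threshold, 19 lost and 17 gained a call, 0 reversed a call, and 82 changed sign without a call on either side. All genes called higher, 165 as reported, were 66 with DESeq2, 0 with no trend, 291 with the same median, and 87 to 309 with 1 library left out. All genes called lower, 660 as reported, were 379 with DESeq2, 0 with no trend, 334 after quantile normalization, 293 with the same total, and 334 to 960 with 1 library left out.

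Members called higher, 1 as reported, were 0 with no trend and 0 to 2 with 1 library left out; SNORA37 joined SCARNA7 without control library 1. Members called lower, 0 as reported, were 1 with robust empirical Bayes (SNORD17) and 0 to 2 with 1 library left out (SNORD17 and SNORA23, without knockdown library 2). A group left with 1 library takes its spread from the other group in these fits. SNORA37 reached the minimum mean only through its knockdown values, so its difference is not free of the choice of members. Calls of a ratio of a member to its host stayed at 0 under the 10 alternatives run for it.

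The SNORA median of 0.0285 was -0.0712 at a minimum mean of 50, -0.0712 over members of that level in the reported fit, -0.0490 after quantile normalization, and 0.0269 to 0.150 with 1 library left out. The SNORD median of 0.0660 was 0.00177 at that minimum, 0.00177 over members of that level, 0.0239 after quantile normalization, 0.0829 with the same median, 0.122 with the same total, and 0.0769 to 0.125 with 1 library left out. The SCARNA median of 0.176, over 6 genes, was -0.145 to 0.405 with 1 library left out. Beyond fewer libraries or members in some fits, the cause was not tested. Setting every library to the same total moved the median of all genes from -0.01 to 0.05.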
